A study of Homo sapiens with 6 samples.

Results

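The transition from G1 into S phase and the copying of DNA were followed through 41 genes, chosen by name from the known machinery of the cell cycle and of DNA replication; the rule holds no measured value, but earlier results of these data were known when the names were put together. All 41 were among the 13002 genes analysed, and 40 were abundant enough to be tested. The RNA came from the established human leukaemia line OCI-AML2, of acute myeloid origin, which the labels also call an engineered leukaemic stem cell line. All 6 libraries came from cells infected with a lentivirus that carried a short hairpin RNA and then kept for 3 days in puromycin at 2.0 µg/mL, so the control cells had been through infection and selection too. The 3 groups of 2 libraries, lettered A and B, carried a control hairpin (a scramble sequence in the labels, GFP in the column names of the deposited tables), TAZ shRNA1 or TAZ shRNA2. TAZ is here tafazzin, the mitochondrial enzyme that remodels cardiolipin, and not the Hippo pathway protein of the same name. The question was how the G1/S and replication genes stood when TAZ was lowered by either of 2 independent hairpins.

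Cyclin D with CDK4 or CDK6, and then cyclin E with CDK2, phosphorylate the retinoblastoma protein, which frees E2F transcription factors to switch on the genes of S phase. The CDK inhibitors p21 and p27 hold this step back. In G1 the origin recognition complex, CDC6 and CDT1 load the MCM2 to MCM7 ring onto DNA, CDC45 and GINS turn it into an active helicase, and polymerases held by the PCNA clamp then copy both strands from nucleotides that ribonucleotide reductase and thymidylate synthase supply. Leukaemia lines in culture cycle continuously, and most of these transcripts are abundant in them.

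Many of these genes are known E2F targets, so E2F motif letters were looked up in their promoters. RefSeq promoter windows of GRCh38.p14, from 250 bases before to 50 bases after a start, were found for 35 of the 41 members, 49 windows in all; CCND2, CCNE2, CDK2, MCM4, MCM5 and GINS4 had no entry. The motifs TTTCCCGC, TTTGGCGC, TTTCGCGC and TTTGCCGC were searched on both strands, where matches to different motifs can overlap. At least 1 of them stood in 20 of the 49 member windows (40.8%) and in 1164 of all 35116 windows (3.31%). The CHR element TTTGAA, found at many mitotic promoters, stood in 2 of 49 member windows (4.1%) and in 15.16% of all windows, and by its letters it cannot overlap an E2F motif. Of the 11 members that passed the test in at least 1 comparison, 10 had a window and 3 of these held an E2F motif, against 16 of the 25 other members with a window. The 3 are shown because they join a changed transcript to such a motif. Each line below gives the 250 bases before the start, 5′ to 3′ on the gene's own strand, with the E2F motif (or its reverse complement) in capitals.
MCM3, chr6:52284743-52284992, minus strand: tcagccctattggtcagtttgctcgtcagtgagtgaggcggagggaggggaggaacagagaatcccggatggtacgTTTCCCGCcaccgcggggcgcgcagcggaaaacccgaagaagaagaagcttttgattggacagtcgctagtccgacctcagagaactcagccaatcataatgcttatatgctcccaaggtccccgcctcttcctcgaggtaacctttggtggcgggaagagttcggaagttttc
CDT1, chr16:88803539-88803788, plus strand: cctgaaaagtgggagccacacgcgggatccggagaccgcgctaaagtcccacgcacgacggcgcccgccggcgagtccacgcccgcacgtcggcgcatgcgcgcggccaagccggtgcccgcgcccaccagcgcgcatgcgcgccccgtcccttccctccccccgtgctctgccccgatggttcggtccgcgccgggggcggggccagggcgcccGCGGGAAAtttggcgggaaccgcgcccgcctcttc
UHRF1, chr19:4909251-4909500, plus strand: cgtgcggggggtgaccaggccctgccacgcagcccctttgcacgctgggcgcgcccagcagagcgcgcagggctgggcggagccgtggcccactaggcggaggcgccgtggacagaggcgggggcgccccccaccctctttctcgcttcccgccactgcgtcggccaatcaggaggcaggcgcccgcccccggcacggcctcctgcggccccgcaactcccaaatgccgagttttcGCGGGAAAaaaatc
The printed match began 174 bases before the RefSeq start in MCM3, 35 bases before it in CDT1 and 14 bases before it in UHRF1. The bases after the start were looked up in transcripts of another annotation, GENCODE. They were found near the opening of a transcript for MCM3 and UHRF1, but not for CDT1. MCM3 held a second match, TTTCGCGC, which runs across the start and so past the printed bases, and a second UHRF1 window, not printed, held TTTCGCGC as well. These are matches of letters, and no binding was measured.

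Libraries held 18820647 to 20980883 reads in the listed genes. TAZ itself was lower in all 4 knock-down libraries, at 11.3 and 11.9 RPKM (reads scaled by gene length and library depth) in the control, 4.02 and 4.10 RPKM with shRNA1 and 1.47 and 2.13 RPKM with shRNA2. SPI1, the master regulator of the myeloid lineage that the label names, lay between 117 and 145 RPKM in every library. Some other myeloid markers were low in the control, with ITGAM at 0.577 and 0.291 RPKM. CD14 stood there at 2.34 and 1.17 RPKM, and CSF1R at 4.02 and 2.16 RPKM. All 10 myeloid markers on the list were measured. Their summed level was 1018 to 1171 RPKM in the control, 5166 to 5703 RPKM with shRNA1 and 3903 to 4666 RPKM with shRNA2, most of it the lysozyme gene LYZ. LYZ, CD33, CSF1R, CSF3R, PTPRC and, at low levels, ITGAM lay above both controls in all 4 knock-down libraries. CD33, for instance, was at 19.71 and 19.88 RPKM in the control, 34.2 and 36.59 RPKM with shRNA1 and 26.25 and 24.48 RPKM with shRNA2. CD14 was at 2.442 and 1.61 RPKM with shRNA1 and 13.39 and 7.973 RPKM with shRNA2. The other markers did not rise: MPO, the granule peroxidase of early myeloid cells, was at 11.2 and 10.1 RPKM in the control, 5.16 and 4.63 RPKM with shRNA1 and 1.024 and 1.49 RPKM with shRNA2. SPI1 and CEBPA ranged from 102.8 to 147 RPKM over all 6 libraries without a clear order of groups. Of 6 T cell markers 2 were measured: CD3D, which is specific to T cells, reached at most 0.981 RPKM, and CD4, which monocytes carry too, was at 8.49 to 9.13 RPKM in the control, 18.5 to 21.0 RPKM with shRNA1 and 13.5 to 13.8 RPKM with shRNA2. The 3 B cell genes measured at most 1.25 RPKM summed, and 1 of 6 erythroid markers (EPOR, 2.75 to 4.99 RPKM) and 0 of 5 epithelial markers were measured. The part of these marker differences in the results below was not tested.

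The replication machinery was abundant in control cells. Of the 40 tested members, 36 had a control mean over 10 RPKM, from PCNA at 432.5 RPKM and TYMS at 295 RPKM down to E2F2 at 4.01 RPKM. The median member stood at percentile 82.1 of all listed genes in the control, and each tested member had 311 to 12057 reads in every library. CCND2, the cyclin D2 gene, was the exception, with 0.0529 to 0.221 RPKM and 7 to 29 reads per library, and it was not tested. CCND3 was the most abundant D-type cyclin gene, at 117 and 125 RPKM in the control, against 2.54 and 1.78 RPKM for CCND1, which is described with the other regulators below.

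For most of the 40 members no difference from the control passed the test with either hairpin, in a model that does not use the letters A and B. With shRNA1, 3 members passed the test (limma on log2(RPKM + 0.5), Benjamini-Hochberg adjusted p under 0.05): CCNE2 rose, CDT1 and MCM3 fell, and 37 did not pass. That is 7.5% of the members, against 18.6% of all 10613 genes tested. Their median log2 fold change was 0.03, beside 0.00 over all genes. With shRNA2, 9 passed, or 22.5%, against 15.7% of all 10659 genes: CCNE2, CDK6, CDKN1A, RB1 and RRM2 rose, and CDK4, CDT1, POLD1 and UHRF1 fell. The median there was -0.08, beside -0.01 over all genes. A change of 2-fold in either direction lay outside the 95% interval for 37 of 40 members with shRNA1 (92.5%, against 85.97% of all genes) and 33 of 40 with shRNA2 (82.5%, against 80.09% of all genes). In bulk RNA, a different share of cells in a phase and a different amount of RNA per cell cannot be told apart.

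Single libraries set how many members passed. With shRNA1 the count of 3 became 8 without control A, 14 without control B and 1 without shRNA1 B. With shRNA2 the count of 9 became 7 without control B, 5 without control A, 5 without shRNA2 A, and 4 once shRNA2 B was left out. The share of all genes called moved too, from 18.6% to 31.1%, 41.4% and 4.35% for those 3 shRNA1 counts, and from 15.7% to 18.8%, 15%, 11.1% and 7.75% for those 4 shRNA2 counts. Libraries A and B of a group differed over the members by a median log2 value of 0.15 (control), 0.10 (shRNA1) and 0.13 (shRNA2), against 0.19, 0.11 and 0.18 over all genes.

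**Figure D1:**
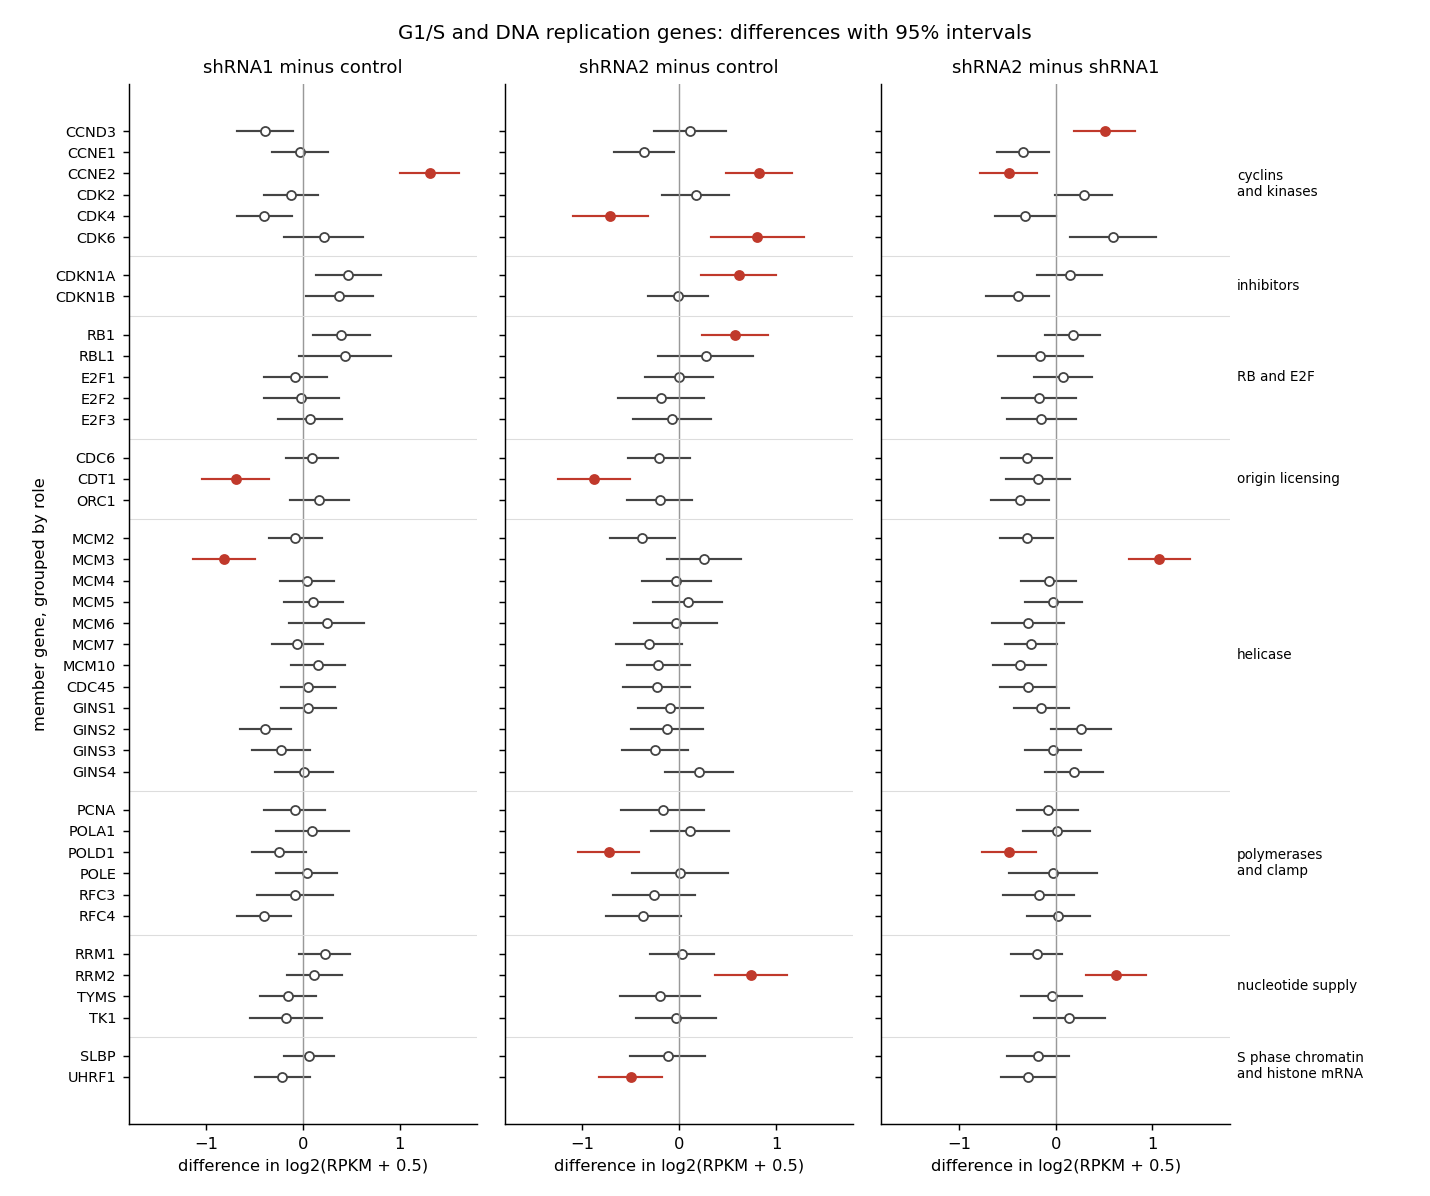
Difference in log2(RPKM + 0.5) of each tested member (points) with its 95% interval (lines), for shRNA1 minus control, shRNA2 minus control and shRNA2 minus shRNA1, grouped by role. Filled red marks an adjusted p under 0.05 in limma: 3, 9 and 5 of 40 members, while most intervals include 0.

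Among cyclins and kinases, the cyclin E2 gene CCNE2 rose with both hairpins. Its level was 8.10 and 9.06 RPKM in the control, 20.7 and 23.3 RPKM with shRNA1 and 16.4 and 14.7 RPKM with shRNA2. All 4 knock-down libraries lay above both control libraries, and the shRNA1 libraries above the shRNA2 libraries. The rise was 2.48-fold with shRNA1 (log2 fold change 1.31, SE 0.13, adjusted p = 0.00238) and 1.77-fold with shRNA2 (log2 fold change 0.82, SE 0.15, adjusted p = 0.0133). Both calls held in all 14 alternatives, with adjusted p up to 0.00603 for shRNA1 and 0.0482 for shRNA2. CCNE1, the other cyclin E gene, stood at 15.1 and 15.4 RPKM in the control, 15.7 and 14.1 RPKM with shRNA1 and 11.8 and 11.6 RPKM with shRNA2, with adjusted p of 0.876 and 0.106. Cyclin E transcripts thus came mostly from CCNE1 in the control, at 15.2 against 8.58 RPKM, while CCNE2 stood above CCNE1 in each of the 4 knock-down libraries.

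The kinases that partner cyclin D went opposite ways with shRNA2. CDK4 was at 159.9 and 149.6 RPKM in the control, 122 and 113 RPKM with shRNA1 and 103 and 86.1 RPKM with shRNA2. Every shRNA2 library lay below every shRNA1 library, and these below both controls. The fall passed with shRNA2, 1.64-fold (log2 fold change -0.71, SE 0.16, adjusted p = 0.0298), and not with shRNA1 (log2 fold change -0.40, SE 0.12, adjusted p = 0.058). CDK6, its paralog, was at 9.48 and 13.1 RPKM in the control, 12.0 and 14 RPKM with shRNA1 and 17.0 and 23.2 RPKM with shRNA2. It rose 1.75-fold with shRNA2 (log2 fold change 0.81, SE 0.21, adjusted p = 0.0398), where both libraries exceeded all 4 others, while its shRNA1 values overlapped the control (adjusted p = 0.41). Over 14 alternatives the shRNA2 adjusted p ran from 0.000476 to 0.148 for CDK4 and from 0.00048 to 0.16 for CDK6. Both calls were lost without control A (0.0828 for CDK4, 0.0696 for CDK6) or without shRNA2 B (0.148 and 0.16), and that of CDK6 also with no filter on low values (0.0526). By level CDK4 stayed the more abundant of the pair, at 94.7 RPKM against 20.1 RPKM with shRNA2. CDK2, the kinase of cyclin E, ranged from 23.5 to 32.6 RPKM over all 6 libraries and passed with neither hairpin.

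Of the 2 CDK inhibitors, CDKN1A, which encodes p21, rose with shRNA2. It was at 87.4 and 70.9 RPKM in the control, 116 and 103 RPKM with shRNA1 and 126 and 116 RPKM with shRNA2, so all knock-down libraries were above both controls. The change was 1.53-fold with shRNA2 (log2 fold change 0.61, SE 0.17, adjusted p = 0.046), and for shRNA1 the log2 fold change was 0.47 (SE 0.14, adjusted p = 0.0604). The shRNA2 call was close to the threshold and was lost in 4 of 14 alternatives: without control B (0.214), without shRNA2 A (0.124), without shRNA2 B (0.0837) and with no filter (0.05004), the lowest adjusted p being 0.0013. CDKN1B, which encodes p27, was at 18.2 and 18.3 RPKM in the control, 21.0 and 27.1 RPKM with shRNA1 and 18.6 and 17.7 RPKM with shRNA2, and passed with neither.

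RB1, the retinoblastoma gene that restrains E2F, rose with shRNA2 as well. Its level was 22.9 and 27.0 RPKM in the control, 32.2 and 33.7 RPKM with shRNA1 and 37.5 and 37.2 RPKM with shRNA2, with no overlap between the 3 groups. The shRNA2 rise was 1.49-fold (log2 fold change 0.58, SE 0.15, adjusted p = 0.0382), and the shRNA1 difference was 0.40 (SE 0.13, adjusted p = 0.0683). The shRNA2 adjusted p was between 0.00364 and 0.146 over 14 alternatives, and the call was lost without control A, without shRNA2 A or without shRNA2 B. Its relative RBL1 (p107) had 6.30 RPKM in control A and 9.85 RPKM in control B, the widest split of any member in the control on the log2 scale (0.61), and 9.16 to 11.4 RPKM in the knock-down libraries. The activator genes E2F1, E2F2 and E2F3 passed with neither hairpin, and each had log2 fold changes between -0.19 and 0.07. E2F1, for instance, lay between 11.8 and 14.3 RPKM in all 6 libraries.

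In origin licensing, CDT1, which loads the MCM ring and is destroyed once S phase starts, fell with both hairpins. It was at 50.3 and 63.0 RPKM in the control, 37.0 and 32.3 RPKM with shRNA1 and 31.2 and 29.7 RPKM with shRNA2. All 4 knock-down libraries were below both controls. The fall was 1.62-fold with shRNA1 (log2 fold change -0.70, SE 0.15, adjusted p = 0.0215) and 1.84-fold with shRNA2 (log2 fold change -0.88, SE 0.16, adjusted p = 0.0141). With shRNA2 it passed in all 14 alternatives (adjusted p up to 0.0265), and with shRNA1 in 13, the exception being without shRNA1 B (log2 fold change -0.60, adjusted p = 0.151). CDC6 and ORC1, its partners in loading, passed with neither: CDC6 ranged from 19.8 to 26.3 RPKM and ORC1 from 12.8 to 18.9 RPKM over the 6 libraries.

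Among the 12 helicase genes, MCM3 alone passed with shRNA1 in limma (8.333%, against 18.6% of all genes). With shRNA2, 0 passed (against 15.7% of all genes), and 1 (MCM2) had an unadjusted p under 0.05, beside 3503 of all 10659 genes. Limma-voom on recovered reads also called 0 with shRNA2, against 17.8% of all genes. The difference of these shares was not tested, and 12 genes are few for it. MCM3 stood at 79.9 and 98.0 RPKM in the control, 51.9 and 48.5 RPKM with shRNA1 and 103 and 109 RPKM with shRNA2. The shRNA1 libraries were the lowest and the shRNA2 libraries the highest, so the 2 hairpins lay on opposite sides of the control. The fall with shRNA1 was 1.76-fold (log2 fold change -0.81, SE 0.14, adjusted p = 0.0105), and with shRNA2 the difference was 0.26 (SE 0.17, adjusted p = 0.312). Over 14 alternatives the shRNA1 adjusted p ran from 1.46e-06 to 0.0674, and only leaving out shRNA1 B took it over 0.05. The ring holds 1 copy of each of its 6 subunits, yet the other 5 did not move with MCM3. With shRNA1, MCM2, MCM4, MCM5, MCM6 and MCM7 had log2 fold changes from -0.08 to 0.25 and adjusted p from 0.313 to 0.829.

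**Figure D2:**
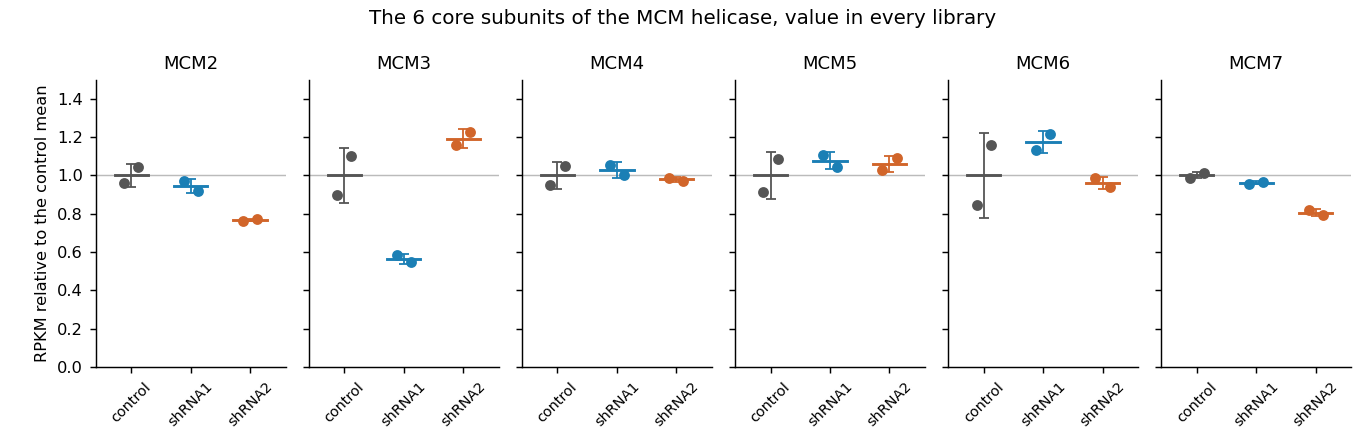
RPKM of MCM2 to MCM7 in every library, divided by the mean of the 2 control libraries; points are libraries A (left) and B (right), bars the mean and whiskers the SD (n = 2). MCM3 fell to 0.584 and 0.545 of the control mean with shRNA1 and stood at 1.16 and 1.23 with shRNA2, while the other 5 subunits lay between 0.763 and 1.21 in the knock-down libraries.

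With shRNA2 the ring genes nearest to the threshold were MCM2 and MCM7. MCM2 was at 75.6 and 82.1 RPKM in the control and at 60.1 and 60.7 RPKM with shRNA2 (log2 fold change -0.38, SE 0.14, adjusted p = 0.113). MCM7 was at 121.5 and 124 RPKM in the control and at 100.4 and 97.4 RPKM with shRNA2 (log2 fold change -0.31, SE 0.15, adjusted p = 0.187). Both were lower in each shRNA2 library than in any other library. MCM10, CDC45 and the 4 GINS genes, which activate the ring, passed with neither hairpin. GINS2 came closest with shRNA1, at 58.9 and 56.0 RPKM in the control against 42.7 and 44.9 RPKM (log2 fold change -0.39, SE 0.11, adjusted p = 0.0513).

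Of the polymerase and clamp genes, POLD1, the catalytic subunit of polymerase delta, fell with shRNA2. Its level was 35.5 and 36.0 RPKM in the control, 32.0 and 28.3 RPKM with shRNA1 and 20.7 and 22.1 RPKM with shRNA2. The shRNA2 libraries were below all others, and the shRNA1 libraries lay between them and the control. The fall was 1.65-fold with shRNA2 (log2 fold change -0.73, SE 0.14, adjusted p = 0.0153), kept in all 14 alternatives with adjusted p up to 0.0442, and for shRNA1 the log2 fold change was -0.24 (adjusted p = 0.18). The catalytic subunits of the other replicative polymerases, POLA1 and POLE, had log2 fold changes between 0.01 and 0.11 with both hairpins. PCNA, the sliding clamp, was the most abundant member, at 426 and 439 RPKM in the control, 403 and 411 RPKM with shRNA1 and 393 and 376 RPKM with shRNA2, and did not pass. RFC4, a subunit of the clamp loader, was at 76.2 and 86.5 RPKM in the control, 61.9 and 61.0 RPKM with shRNA1 and 69.8 and 56.4 RPKM with shRNA2, with adjusted p of 0.0573 and 0.17. RFC3, another subunit, had log2 fold changes of -0.08 and -0.26 and did not pass.

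In nucleotide supply, RRM2, the small subunit of ribonucleotide reductase whose level rises in S phase, rose with shRNA2. It was at 86.4 and 81.3 RPKM in the control, 95.9 and 86.4 RPKM with shRNA1 and 153 and 129 RPKM with shRNA2. Both shRNA2 libraries exceeded all others. The rise was 1.67-fold (log2 fold change 0.74, SE 0.16, adjusted p = 0.0246), against a log2 fold change of 0.12 with shRNA1 (adjusted p = 0.504). Its adjusted p with shRNA2 ran from 0.000394 to 0.0804 over 14 alternatives, crossing 0.05 without control B (0.0617) or shRNA2 A (0.0804). RRM1, the large subunit of the same enzyme, was at 74.1 and 77.9 RPKM in the control and at 78.7 and 76.5 RPKM with shRNA2 (adjusted p = 0.905). TYMS, which makes thymidylate, and TK1, which salvages thymidine, passed with neither hairpin.

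Of the last 2 members, UHRF1, which brings the maintenance methyltransferase DNMT1 to newly copied DNA, fell with shRNA2. Its level was 66.0 and 69.5 RPKM in the control, 62.5 and 54.4 RPKM with shRNA1 and 48.5 and 47.0 RPKM with shRNA2, with shRNA2 below all other libraries. The fall was 1.41-fold (log2 fold change -0.50, SE 0.14, adjusted p = 0.0496). This call sat at the threshold and was lost in 6 of 14 alternatives: with the stricter filter (0.0518), with quantile normalization (0.0797) and without any 1 of the 4 libraries (0.107 to 0.194), the lowest adjusted p being 0.00492. SLBP, which binds the stem-loop of histone messenger RNA, was at 83.7 and 86.4 RPKM in the control and between 69.7 and 89.4 RPKM in the knock-down libraries, and did not pass.

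**Figure D3:**
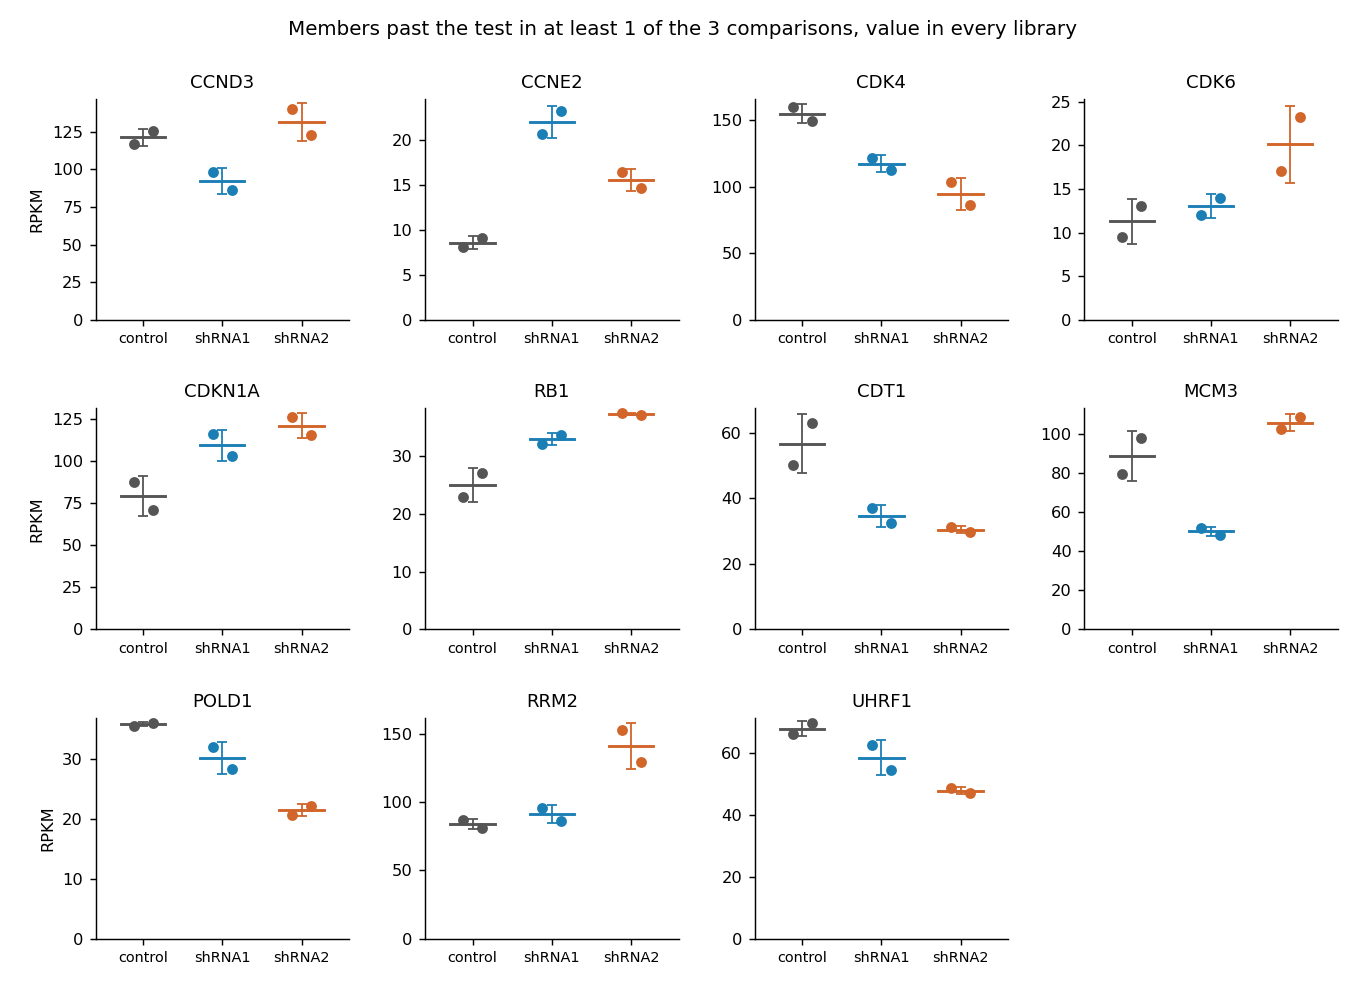
RPKM (axis from 0) in every library of the 11 members that passed in at least 1 comparison; points are libraries A (left) and B (right), bars the mean and whiskers the SD (n = 2). CCNE2 is above, and CDT1 below, both controls in all 4 knock-down libraries, while MCM3 is low with shRNA1 only, at 51.9 and 48.5 RPKM.

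The hairpins were also compared with each other, in 1 fit of all 6 libraries, where 5 of 40 members passed (12.5%, against 10.9% of all 10660 genes). MCM3 differed most, 2.10-fold higher with shRNA2 than with shRNA1 (difference 1.07, SE 0.14, adjusted p = 0.00318). Its adjusted p was 0.000191 to 0.057 over 15 alternatives and crossed 0.05 only without shRNA1 B. RRM2 was 1.54-fold higher with shRNA2 (difference 0.62, SE 0.14, adjusted p = 0.0247), a call lost without shRNA1 A (0.131), shRNA1 B (0.234) or shRNA2 A (0.11), with a lowest adjusted p of 0.00244. CCND3, the D-type cyclin, was at 98.4 and 86.4 RPKM with shRNA1 against 140.3 and 123 RPKM with shRNA2, the control lying between the group means, and was 1.42-fold higher with shRNA2 (difference 0.51, SE 0.14, adjusted p = 0.0496). CCNE2 and POLD1 were lower with shRNA2 than with shRNA1, by differences of -0.49 (SE 0.13, adjusted p = 0.0482) and -0.48 (SE 0.12, adjusted p = 0.0395).

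The calls of CCND3, CCNE2 and POLD1 between hairpins were lost without any 1 of the 4 knock-down libraries. Those of CCND3 and CCNE2 were also lost with no filter on low values, and that of CCND3 with the stricter filter. Scaling to the reads in listed genes lost those of CCNE2 and POLD1. Over 15 alternatives the differences ran from 0.409 to 0.603 for CCND3, -0.567 to -0.405 for CCNE2 and -0.569 to -0.393 for POLD1. The count of 5 was smaller without any 1 of these 4 libraries, and so was the share of all genes called. In the full set of libraries 13 of 40 members had an unadjusted p under 0.05 in limma, beside 2802 of all 10660 genes. Limma-voom on recovered reads called 5 members (12.5%, against 11.8% of all genes). CDT1, which fell with both hairpins, did not pass between them (difference -0.18, 95% interval -0.51 to 0.15, adjusted p = 0.472). For CDK4 and CDK6 the differences were -0.31 (95% interval -0.63 to 0.01, adjusted p = 0.197) and 0.60 (95% interval 0.15 to 1.04, adjusted p = 0.092), so a difference between the hairpins was not shown for either. Of the 40 members 27 were lower and 13 higher with shRNA2 than with shRNA1, with a median of -0.15 beside -0.01 over all genes. Over all genes 5456 of 10660 were lower. Of the 88 tested genes on the other pathway lists described below, 63 were lower, with a median of -0.12.

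Among other genes of the same machinery, too, some rose and some fell. The 5 further lists held 89 measured genes, of which 88 were tested. With shRNA1, 7 rose and 5 fell (13.64%, against 18.6% of all genes; median -0.03), and with shRNA2, 4 rose and 6 fell (11.36%, against 15.7%; median -0.11). The difference of these shares from those of the members was not tested. Among other regulators of the cell cycle, 2 of 20 rose with shRNA1, and 2 rose and 3 fell with shRNA2. CDC25A, the phosphatase that activates CDK2, was at 23.4 and 23.2 RPKM in the control, 19.7 and 16.8 RPKM with shRNA1 and 6.73 and 6.67 RPKM with shRNA2. It fell by 1.72 on the log2 scale with shRNA2 (SE 0.14, adjusted p = 0.00245). E2F5, an E2F family member that works with the retinoblastoma relatives, went from 12.9 and 14.7 RPKM in the control to 4.51 and 4.33 RPKM with shRNA2 (log2 fold change -1.54, SE 0.15, adjusted p = 0.00245). Both stood below their shRNA1 levels and passed between hairpins in all 15 alternatives (adjusted p up to 0.0208 and 0.0318). The cyclin D1 gene CCND1, picked after its values were seen, fell with shRNA2 too, to 0.48 and 0.534 RPKM (log2 fold change -1.39, SE 0.23, adjusted p = 0.00977), and was at 1.44 and 0.862 RPKM with shRNA1 (adjusted p = 0.0762).

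CDKN2C, which encodes the CDK4 and CDK6 inhibitor p18, rose with both hairpins, from 31.0 and 27.4 RPKM to 44.7 and 41.7 RPKM with shRNA1 (log2 fold change 0.56, SE 0.12, adjusted p = 0.0232) and 59.5 and 48.0 RPKM with shRNA2 (log2 fold change 0.86, SE 0.16, adjusted p = 0.0155). The shRNA1 call was lost without either shRNA1 library (adjusted p up to 0.15, lowest 0.000342). CCNA1, the cyclin A of germ cells and some leukaemias, rose with shRNA1, from 1.93 and 1.16 RPKM to 4.96 and 5.59 RPKM (log2 fold change 1.52, SE 0.21, adjusted p = 0.006), and was at 1.75 and 1.47 RPKM with shRNA2. RBL2, the retinoblastoma relative p130, was the other regulator to rise with shRNA2 (log2 fold change 0.79, SE 0.16, adjusted p = 0.0198).

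Of 19 other origin and helicase genes, 3 rose and 1 fell with shRNA1, and 1 fell with shRNA2. MCM9 (adjusted p = 0.0425) and TOPBP1 (adjusted p = 0.0341) were among those that rose with shRNA1. TIPIN, of the fork protection complex, fell with both, from 34.2 and 37.3 RPKM to 25.8 and 23.3 RPKM with shRNA1 (adjusted p = 0.0253) and 23.5 and 19.7 RPKM with shRNA2 (adjusted p = 0.022). Its call was lost with shRNA1 in 3 alternatives (leaving out shRNA1 A or B, or removing the gene length trend; adjusted p from 0.00111 to 0.244) and with shRNA2 without shRNA2 B (0.0947; lowest 0.00152). MCMBP, which binds MCM proteins, rose with shRNA1, from 31.3 and 33.8 RPKM to 45.7 and 48.8 RPKM (adjusted p = 0.0235), but not when either shRNA1 library was left out (adjusted p from 0.00116 to 0.223).

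Of 22 other replisome genes, 1 rose and 2 fell with shRNA1, and 1 fell with shRNA2. That one was POLD2, the partner subunit of POLD1, at 92.5 and 79.1 RPKM in the control, 76.5 and 71.7 RPKM with shRNA1 and 46.4 and 41.6 RPKM with shRNA2 (log2 fold change -0.95, SE 0.15, adjusted p = 0.00986). POLD2 passed in all 14 alternatives (adjusted p up to 0.0206). The remaining subunits of polymerase delta did not pass with shRNA2 and had positive log2 fold changes, 0.16 for POLD3 (adjusted p = 0.454) and 0.58 for POLD4 (adjusted p = 0.139). POLA2, the accessory subunit of polymerase alpha, had adjusted p of 0.11 and 0.0717. With shRNA1, RPA3, of the single-strand binding complex, fell from 47.9 and 39.3 RPKM to 30.6 and 30.0 RPKM (adjusted p = 0.0375), and POLE3, of polymerase epsilon, rose from 77.9 and 75.5 RPKM to 101 and 106 RPKM (adjusted p = 0.0384); RFC2, of the clamp loader, was the other to fall (adjusted p = 0.0445). The calls of RPA3 and POLE3 were lost without either shRNA1 library and in 1 fit of all 6 libraries, that of RPA3 also after removing the gene length trend, with adjusted p up to 0.23 and 0.351 (lowest 0.000506 and 0.00482).

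In nucleotide supply, 1 of 15 other genes rose and 1 fell with shRNA1, and 1 rose with shRNA2. SAMHD1, the enzyme that breaks down deoxynucleotides and is abundant in myeloid cells, rose most of all genes on the lists with each hairpin. It went from 10.8 and 13.1 RPKM to 54.4 and 56.7 RPKM with shRNA1 (log2 fold change 2.18, SE 0.13, adjusted p = 0.00102) and 38.4 and 43.7 RPKM with shRNA2 (log2 fold change 1.74, SE 0.16, adjusted p = 0.00245). Both calls held in all 14 alternatives (adjusted p up to 0.00254 and 0.00562). SHMT1, of one-carbon metabolism, fell with shRNA1 from 21.1 and 22.2 RPKM to 13.9 and 14.5 RPKM (adjusted p = 0.0171), but not when either shRNA1 library was left out (up to 0.122, lowest 0.00063). IMPDH2, of guanine nucleotide synthesis, did not pass with either (adjusted p of 0.404 and 0.0662).

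Of 12 other genes of chromatin replication, 1 fell with shRNA1, and 1 rose and 1 fell with shRNA2. KIAA0101, the PCNA-associated factor, fell with shRNA1 from 353 and 319 RPKM to 215 and 209 RPKM (log2 fold change -0.66, SE 0.13, adjusted p = 0.017), but not when either shRNA1 library was left out (adjusted p from 6.6e-05 to 0.22). CDCA7, which works with the remodeller HELLS in DNA methylation, fell with shRNA2 from 42.9 and 61.1 RPKM to 23.7 and 23.0 RPKM (log2 fold change -1.12, SE 0.19, adjusted p = 0.0107) and passed in all 14 alternatives. The histone chaperone genes ASF1A and ASF1B stood apart: ASF1B rose with shRNA2, from 36.5 and 34.0 RPKM to 53.2 and 51.4 RPKM (adjusted p = 0.0351, lost without any 1 of the 4 libraries, from 0.00278 to 0.103), and ASF1A passed with neither (adjusted p of 0.0551 and 0.227).

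For mitotic genes, which peak after S phase, 24 were tested. With shRNA1, 2 rose and 1 fell (12.5%, against 18.6% of all genes, median 0.05). With shRNA2, 1 rose (4.167%, against 15.7% of all genes, median 0.12). The proliferation marker MKI67 was at 22.6 RPKM in both control libraries, 28.7 and 28.1 RPKM with shRNA1 (adjusted p = 0.0818) and 30.5 and 37.7 RPKM with shRNA2 (log2 fold change 0.57, SE 0.15, adjusted p = 0.0435). That call was lost in 4 of 14 alternatives, without control A, control B or shRNA2 B and after removing the gene length trend (adjusted p from 0.00431 to 0.241). With shRNA1 the checkpoint kinase gene BUB1 rose from 26.5 and 23.8 RPKM to 42.1 and 43.9 RPKM (adjusted p = 0.00829), and AURKB, the kinase of the chromosomal passenger complex, fell from 96.9 and 80.2 RPKM to 52.8 and 44.1 RPKM (adjusted p = 0.0111). Both calls held in 13 of 14 alternatives and were lost without shRNA1 B (0.0598 and 0.0753; lowest 1.58e-05 and 3.99e-06). CENPF, a kinetochore protein gene, rose as well (adjusted p = 0.0457). The kinesin gene KIF20A passed with neither hairpin (adjusted p of 0.561 and 0.057).

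**Figure D4:**
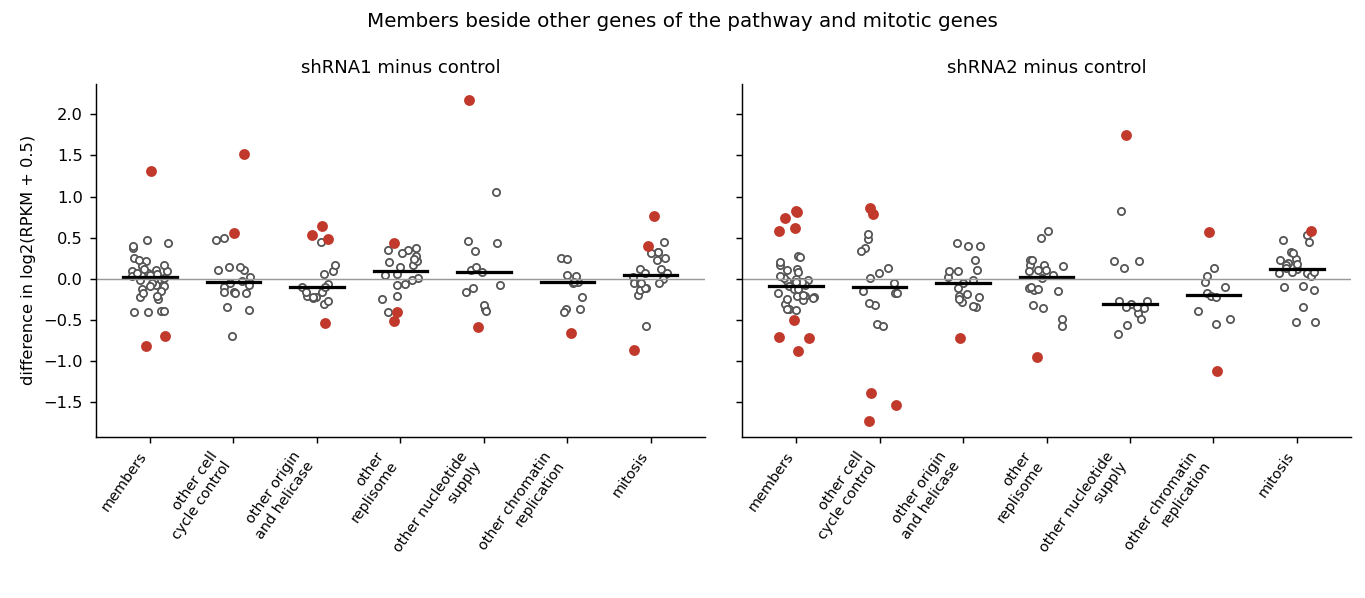
Difference in log2(RPKM + 0.5) from the control of each tested gene (points; filled red, adjusted p under 0.05 in limma) for the members, 5 lists of other pathway genes and mitotic genes, with the median of each list as a bar. Medians lie between -0.10 and 0.10 with shRNA1 and between -0.31 and 0.12 with shRNA2, and single genes such as SAMHD1 (2.18 and 1.74) stand far from them.

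Some members share their locus with another measured gene, and since the strand setting of the counting is not given in the sources used here, their reads may not be fully separate. INTS8 and NDUFAF6 overlap CCNE2: INTS8 was at 20.4 and 16.5 RPKM in the control, 28.1 and 27.9 RPKM with shRNA1 and 31.6 and 28.9 RPKM with shRNA2, and NDUFAF6 ranged from 10.9 to 15.1 RPKM. LPAR6, inside RB1, went from 4.95 and 3.91 RPKM in the control to 8.25 and 8.33 RPKM with shRNA1 and 15.9 and 13.4 RPKM with shRNA2, the same direction as RB1. TSPAN31, beside CDK4, was at 7.07 and 7.43 RPKM in the control and at 14.7 and 11.4 RPKM with shRNA2, the opposite direction to CDK4. The part of these neighbours in the values of CCNE2, RB1 and CDK4 was not tested. CDT1, MCM3 and POLD1 overlapped no other gene in the RefSeq list.

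The authors' deposited table, which gives an adjusted p for each gene in each hairpin's comparison, calls more genes at the same threshold of 0.05: 35.9% of 13002 genes with shRNA1 and 38.8% with shRNA2. Among the 41 members it calls 11 with shRNA1 (5 rose, 6 fell) and 14 with shRNA2 (6 rose, 8 fell). These include, in the same direction, all 3 and all 9 members that passed here. In the authors' deposited table CCNE2 has log2 fold changes of 1.35 and 0.87, CDT1 of -0.71 and -0.89, and MCM3 of -0.82 and 0.26. Of members that did not pass here with shRNA1, the authors' deposited table calls CDK4 (-0.40), CDKN1A (0.47), RB1 (0.40), CCND3 (-0.40), CDKN1B (0.39), RBL1 (0.45), RFC4 (-0.41) and GINS2 (-0.39). It thus calls CDK4, CDKN1A and RB1 with both hairpins, each in 1 direction. Of members that did not pass here with shRNA2, it calls MCM2 (-0.38), MCM7 (-0.31), CCNE1 (-0.37), RFC4 (-0.36) and CCND2 (1.43).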

How the data were processed

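RNA was sequenced from 6 libraries of OCI-AML2 cells in 3 groups of 2. The submitters' processing notes name DESeq 1.18.0, edgeR 3.8.6, HTSeq 0.6.1p2, TopHat2 2.0.11, Trim Galore 0.4.0 and the build hg19, without roles. Per the file headers, the authors gave each hairpin a table with the RPKM of its libraries and the control, a log2 fold change, a p-value and an adjusted p-value. How genes were filtered and whether counting used strand is not given in the sources used here. Both tables carry identical control values, so the libraries share 1 normalization. Of 13004 rows, 2 exact repeats were dropped, and 21 date-like symbols were renamed by gene ID. The deposited RPKM values rise in steps of 1 read, from which whole reads were recovered for 100.0% of 13002 genes (within 0.01 read); these give the depth.

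RPKM was transformed to log2(RPKM + 0.5), which understates the change of genes near 0. Genes averaging 1 RPKM or more in the fitted libraries were tested two-sided with limma 3.58.1 (R 4.3.3; eBayes with a trend), Benjamini-Hochberg adjustment over all genes tested and a threshold of 0.05. A hairpin comparison used 4 libraries, and the comparison between hairpins all 6 in 1 fit; both hairpin comparisons share the control libraries. An adjusted p without another name is limma's. Nothing in the labels ties A and B to separate cultures: the p-values rest on a spread between libraries that may be technical, and an exact permutation test of 2 against 2 libraries cannot go below p = 0.333. The scripts were tested on simulated data. Alternatives were other pseudocounts (0.1, 1), no filter or a mean of 5 RPKM, each library left out, the letter as a replicate block, quantile normalization, removal of a gene length trend, limma-voom on recovered reads, 1 fit of all 6 libraries and, added after seeing the data, scaling to the reads in listed genes.

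The members and lists were chosen with earlier results of these data known. The rule for named genes gives values in every library for members past the threshold in any comparison, and in each other list names the 2 genes with the smallest unadjusted p per hairpin; other members described, and CCND1, RBL2, MCM9, TOPBP1, RFC2, POLD3, POLD4 and CENPF, were picked after their values were seen. Gene overlaps and promoters came from RefSeq on GRCh38.p14, used for names, neighbours and promoter letters only.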

Additional observations from a re-analysis of the deposited data

How the results depend on the processing

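No called change reversed among the genes followed through the alternatives. These were TAZ and the members called in the main fit or in an alternative other than a library left out or the replicate block. CCND1 and the genes named by rule from the other lists were followed where the main fit called them. Of the values of single genes under alternatives, 661 stayed on their side of the threshold, 33 moved under it and 86 over it. The 33 came from members followed because an alternative called them. The cause of these moves was not tested. The number of members called with shRNA1 was 3; it was 6 with the gene length trend removed, 7 by limma-voom on recovered reads, and 1 to 14 with each library left out in turn, with a median log2 fold change from -0.052 to 0.097 (main value 0.025, so its sign was not stable). With shRNA2 it was 9, and 4 to 7 with each library left out. Between the hairpins it was 5; it was 3 with no filter, 3 when scaled to the reads in listed genes (a choice made after seeing the data), and 0 to 6 with each library left out, with a median from -0.147 to -0.103. The share of all genes called moved with these settings too. With shRNA1, removing the gene length trend called 15% of members, against 19.7% of all genes. Limma-voom on recovered reads called 17.5% of members there, against 20.8% of all genes. Between the hairpins the main fit called 12.5% of members, against 10.9% of all genes. That became 7.32% against 9.15% with no filter, and 7.5% against 10% when scaled. These differences in share were not tested. With 1 library left in a group, that library is assumed to vary like the others.

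No label says that a letter marks a shared culture, batch or day, so the letters were not used to pair libraries. Deviations of same-lettered libraries from their group means correlated across 10660 genes at 0.26 (control and shRNA1), 0.42 (control and shRNA2) and 0.37 (both hairpins). With the letter as a replicate block, 11 members were called with shRNA1 (27.5%, against 35.6% of all genes), 13 with shRNA2 (32.5%, against 39.1%) and 9 between the hairpins (22.5%, against 22.5%). RPKM denominators were 0.951 to 1.067 of the reads in listed genes. Tested members had at least 311 reads in each library, and 2 libraries per group limit the precision.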
